A study of Mus musculus with 18 samples.

Results

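The genes described here encode subunits of ligand-gated ion channels, the receptors that open a pore when a transmitter, ATP or a proton binds. They were picked out by a pattern of gene symbols that uses no measured value: subunits of GABA-A, glycine, nicotinic acetylcholine, serotonin 3, AMPA, kainate, delta and NMDA glutamate, P2X and acid-sensing channels. The count table held 48 of them among its 15730 genes: 11 GABA-A, 11 nicotinic, 6 P2X, 5 kainate, 4 AMPA, 3 NMDA, 3 acid-sensing, 2 delta, 2 serotonin 3 subunits and 1 glycine receptor subunit. All 48 passed the filter on low counts, but the deposited table had already lost its lowest genes. A further 20 genes of the same families were listed only in the FPKM table.

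Ligand-gated channels assemble from several subunits, and the mix of subunits sets which transmitter opens them, which ions pass and where in the cell they sit. In sensory neurons of the dorsal root ganglion they act on the peripheral ending, on the cell body and on the central terminal in the spinal cord. P2X and acid-sensing channels report ATP and acid from tissue, serotonin 3 and nicotinic channels respond to transmitters around the nerve, and GABA-A channels on these neurons control release from the central terminal.

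RNA was sequenced from the L4 to L6 dorsal root ganglia of the sciatic nerve of C57BL/6 mice aged 6 to 8 weeks, collected 24 hours after surgery, and each sample pooled the ganglia of 2 mice. There were 6 groups of 3 samples. SNA_Saline had a sciatic nerve injury and saline, and Sham_Saline had the sham operation and saline. SNA_NAC had the same nerve injury with 30 mM N-acetyl-cysteine, a thiol antioxidant. Sham_H2O2 had the sham operation with 13 mM hydrogen peroxide. DCA had a dorsal column injury of the spinal cord, which cuts only those central branches that run in the dorsal columns. LAM had its laminectomy control. The labels name no transgene and no sex, and the ganglia hold neurons, glia, vessels and immune cells together.

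Library totals ran from 6472476 to 42435331 counts, a 6.56-fold range, and the 48 genes took 0.177% to 0.237% of a library. Atf3, a transcription factor induced by axon injury, was at 412 to 478 CPM (counts scaled to library size, with TMM factors) in the 6 libraries labelled sciatic nerve injury and at 12.2 to 121 CPM in the other 12. Those 12 differed by group: 12.2 to 16.9 CPM in LAM, 25.0 to 39.6 in DCA, 55.9 to 72.6 in Sham_Saline and 79.5 to 121 in Sham_H2O2. The 15 sensory neuron markers summed to 15352 to 22092 CPM and none was at 0. After nerve injury with saline, 0 of 15 sensory neuron, 7 satellite glia, 7 Schwann cell, 10 skeletal muscle, 7 macrophage and 4 endothelium markers passed, and 1 of 4 spinal cord markers did, Gfap, also made by reactive glia, which rose. In SNA_NAC against Sham_Saline, Gfap and 1 of 7 macrophage markers, Mrc1, rose, and no other marker of these lists passed. Of the 7 macrophage markers, 3 changed upward and 4 downward, with a median log2 fold change of -0.13. Mrc1 was at 22.6 ± 3.64 CPM (SD, n = 3) in SNA_Saline and 23.6 ± 3.01 in SNA_NAC. Schwann cell markers summed to 6364 to 10468 CPM, macrophage markers to 61.8 to 93.7 CPM and skeletal muscle markers to 141 to 1815 CPM, highest in Sham_Saline replicate 2. The Sham_Saline libraries differed most among themselves. Replicate 1 held the highest level of 11 of the 48 genes (22.9%, against 13.1% of all genes), and replicate 2 held the highest level of 9 (18.8%, against 26.6% of all genes) and the lowest of 14, where the share of all genes was 20.7%.

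Because 3 genes with an upstream sequence in RefSeq (assembly GRCm38.p6) changed after sciatic nerve injury, the 250 bases before their outermost annotated start are printed 5′ to 3′ on the gene's strand. Gabra5 is read from chr7:57510060-57510309 on the minus strand, Chrna5 from chr9:54980630-54980879 on the plus strand and Htr3b from chr9:48964991-48965240 on the minus strand. Capitals mark a match to TGANNTCA, where N is any base. The match in Gabra5 is not itself a palindrome. Binding of ATF or CREB factors to any match was not tested.
Gabra5: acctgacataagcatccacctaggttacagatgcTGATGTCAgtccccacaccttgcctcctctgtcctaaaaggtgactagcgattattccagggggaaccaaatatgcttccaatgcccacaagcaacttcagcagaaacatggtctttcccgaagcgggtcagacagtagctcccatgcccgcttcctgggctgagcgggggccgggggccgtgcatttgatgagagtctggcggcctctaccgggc
Chrna5: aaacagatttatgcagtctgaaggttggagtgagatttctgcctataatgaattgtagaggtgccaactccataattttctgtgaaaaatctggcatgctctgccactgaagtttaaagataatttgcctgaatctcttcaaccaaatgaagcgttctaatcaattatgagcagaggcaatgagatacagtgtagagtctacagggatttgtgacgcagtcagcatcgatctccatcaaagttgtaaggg
Htr3b: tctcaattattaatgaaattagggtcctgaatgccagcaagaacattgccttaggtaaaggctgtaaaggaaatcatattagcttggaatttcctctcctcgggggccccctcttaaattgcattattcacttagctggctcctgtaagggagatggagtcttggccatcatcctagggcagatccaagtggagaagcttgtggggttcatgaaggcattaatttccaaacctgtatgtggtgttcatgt

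The shorter AP-1 form TGANTCA and the longer TGANNTCA were searched on both strands in 32851 windows of this length. TGANNTCA was found in 11.9% of all windows and in 3 of the 40 windows of the 33 members with an entry. These 3 windows belonged to Gabra5, Asic1 and P2rx6. In Gabra5 the match began 216 bases before the start. TGANTCA was found in 6.75% of all windows and in 2 of the 40 member windows, of Chrna1 and P2rx7. The motifs were picked after the sequences had been read, and a match is a description of letters, not a measured site.

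Levels are compared between genes as FPKM, which divides by length. Grik1, the kainate subunit that marks many small sensory neurons, was the most abundant at a mean of 80.4 FPKM over the 18 samples (range 68.8 to 95.2). Htr3a, the pore-forming serotonin 3 subunit, followed at 67.8 (52.9 to 87.9), Glrb, the glycine receptor beta subunit, at 63.7 (47.5 to 76.9) and P2rx3, the ATP-gated channel of nociceptors, at 57.0 (41.6 to 76.5). These ranges over samples overlapped between each gene and the next in the order. There were 14 genes at 10 FPKM or more, 25 between 1 and 10, and 9 below 1.

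**Figure D1:**
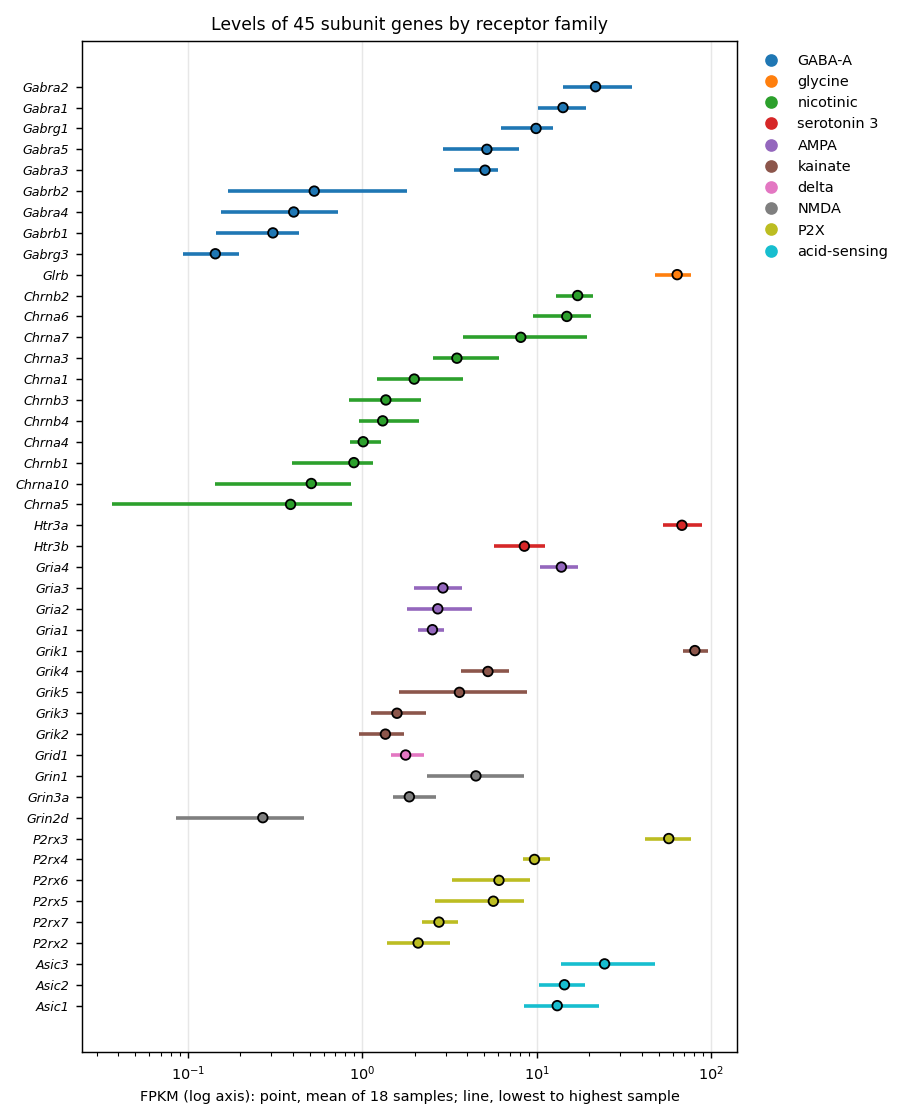
Mean FPKM of 45 of the 48 subunit genes on a log axis, grouped and coloured by receptor family, with a line from the lowest to the highest of the 18 samples. Grik1, Htr3a, Glrb and P2rx3 stood highest at 57.0 to 80.4 FPKM, and Gabrg3 stood lowest at 0.144 FPKM.

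Most families were led by 1 subunit. Of the summed kainate FPKM, Grik1 was 87.2% over the 18 samples, with Grik2 lowest at 1.36 FPKM. Gria4 was 62.9% of the AMPA sum, with Gria1 lowest at 2.52 FPKM. P2rx3 was 68.2% of the P2X sum, and P2rx2, its partner in heteromeric channels, was lowest at 2.09 FPKM. Htr3a was 88.9% of the serotonin 3 sum against 11.1% for Htr3b, which needs Htr3a to form a channel. Chrnb2 was 86.6% of the neuronal nicotinic beta sum, and Chrna6 was 52.3% of the neuronal nicotinic alpha sum, with Chrna5 lowest of the nicotinic genes at 0.388 FPKM. The acid-sensing family was the most even, at 24.4 FPKM for Asic3, 14.4 for Asic2 and 13.1 for Asic1. Grid1, a delta subunit, was at 1.77 FPKM.

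Most GABA-A receptors hold alpha, beta and gamma subunits. Gabra2 was the leading GABA-A gene at 21.7 FPKM and Gabrg3 the last at 0.144.

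In 2 families a required partner was at a much lower level. Glrb stood at 63.7 FPKM, while the ligand-binding glycine receptor alpha subunits were listed at 0.140 (Glra2), 0.015 (Glra4), 0.00201 (Glra1) and 0.000582 (Glra3). Grin1, the subunit that every NMDA receptor holds, was at 4.48 FPKM, with Grin3a at 1.86 and Grin2d lowest in the count table at 0.269. Grin2a and Grin2b, the main glutamate-binding partners in brain, were listed at 0.00143 and 0.00211 FPKM and Grin2c at 0.0499. The 20 genes listed only as FPKM had means of 0.160 or less, the highest being Gabrd, and Gabra6 was listed at 0 in every sample. The counts behind these low FPKM values are not given in the count table, so their precision is unknown.

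The comparison of SNA_Saline with Sham_Saline asks which subunits responded to peripheral axon injury. Of the 48 genes, 2 rose and 3 fell: Gabra5 and Chrna5 rose, and Chrna6, Chrnb3 and Htr3b fell. That is 10.4% of the members, against 2.73% of all 15730 genes, with 2.16% of all genes called higher and 0.572% called lower. The test was edgeR's quasi-likelihood test with Benjamini-Hochberg adjustment over all genes and a threshold of 0.05. The median log2 fold change was -0.17 over the 48 genes and -0.03 over all genes. With DESeq2's size factors and test, 2 members were higher and 5 lower, among 520 higher and 343 lower of all 15730 genes. The summed sensory neuron markers lay at 16072 to 16824 CPM in SNA_Saline and 16147 to 22092 in Sham_Saline, with a median log2 fold change of -0.37 over the 15, and their part in the result was not tested. In bulk tissue, fewer cells of a type and less RNA per cell cannot be told apart.

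Gabra5 encodes a GABA-A alpha subunit that in brain sits largely outside synapses. Its level was 17.0, 20.9 and 17.1 CPM in SNA_Saline and 10.8, 7.71 and 10.9 CPM in Sham_Saline. It was 11.6, 10.2 and 11.3 in LAM, 11.0, 12.6 and 9.67 in DCA, 12.8, 12 and 14.5 in Sham_H2O2, and 18.9, 21.7 and 20.2 CPM in SNA_NAC. All 6 nerve-injured samples lay above all 12 others, and the log2 fold change against Sham_Saline was 0.90 (SE 0.15, adjusted p = 0.00281). Gabra5 lies at chr7:57407672-57510059 on the minus strand (GRCm38, GENCODE M21).

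Chrna5 encodes an accessory nicotinic subunit that joins channels built from other alpha and beta subunits. It was a low gene, at 1 to 101 counts per library. Its level was 2.44, 1.62 and 2.00 CPM in SNA_Saline, from 37, 15 and 28 counts, and 0.858, 0.421 and 0.271 CPM in Sham_Saline, from 18, 10 and 4 counts. It was 0.104 to 1.02 CPM in the 9 samples of LAM, DCA and Sham_H2O2 and 2.39, 2.19 and 2.16 in SNA_NAC. The 6 injured samples again lay above all 12 others. The log2 fold change was 1.93 (SE 0.39, adjusted p = 0.0109), but the adjusted p was 0.0857 without SNA_Saline replicate 1 and 0.0590 without Sham_Saline replicate 2. Chrna5 (chr9:54980880-55007779, plus strand) lies 2331 bases from Chrna3, which in turn lies 1591 bases from Chrnb4, and the 3 subunits can form 1 receptor. Chrna3 stood at 12.5 ± 5.47 CPM (SD, n = 3) in Sham_Saline and 11.1 ± 1.44 in SNA_Saline, and Chrnb4 at 5.68 ± 1.39 and 4.36 ± 0.365, and neither passed the test.

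Chrna6 encodes a ligand-binding nicotinic alpha subunit and Chrnb3 the accessory beta subunit that assembles with it. Both fell. Chrna6 was at 33.7, 30.3 and 27.6 CPM in SNA_Saline and 49.6, 37.2 and 48.2 in Sham_Saline, a log2 fold change of -0.56 (SE 0.11, adjusted p = 0.0116). The other Chrna6 values were 53.2, 51.3 and 52.4 CPM in LAM, 52.5, 56.4 and 58.9 in DCA, 46.6, 43.1 and 47.8 in Sham_H2O2, and 31.1, 34.2 and 31.1 in SNA_NAC. The 6 injured samples lay at 27.6 to 34.2 CPM, below the 12 others at 37.2 to 58.9. The adjusted p of Chrna6 was 0.0545 without SNA_Saline replicate 2.

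Chrnb3 was at 5.08, 4.76 and 5.13 CPM in SNA_Saline and 9.91, 7.07 and 8.48 in Sham_Saline, a log2 fold change of -0.76 (SE 0.15, adjusted p = 0.00874). It was 6.11, 6.23 and 6.28 CPM in LAM, 6.71, 7.51 and 7.29 in DCA, 7.76, 7.06 and 5.72 in Sham_H2O2, and 3.91, 4.44 and 4.31 in SNA_NAC. The highest injured sample, at 5.13 CPM, was below the lowest of the other 12, at 5.72. Chrnb3 (chr8:27368711-27399730, plus strand) and Chrna6 (chr8:27403212-27413944, minus strand) are neighbours, 3481 bases apart.

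Htr3b was at 14.8, 15.1 and 13.7 CPM in SNA_Saline and 22.4, 21.9 and 23 in Sham_Saline, and fell by 0.63 on the log2 scale (SE 0.11, adjusted p = 0.00374). It was 24.2, 23.4 and 23.7 CPM in LAM, 22.7, 27.6 and 24.3 in DCA, 22.2, 23.4 and 19.5 in Sham_H2O2, and 18.1, 15.6 and 16.7 in SNA_NAC. The injured samples lay below all 12 others. Its partner Htr3a, 23908 bases away on chromosome 9, stood at 159 ± 17.2 CPM (SD, n = 3) in Sham_Saline and 122 ± 2.44 in SNA_Saline, and missed the threshold (log2 fold change -0.38, adjusted p = 0.0787). Htr3b lies at chr9:48935008-48964990 on the minus strand.

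**Figure D2:**
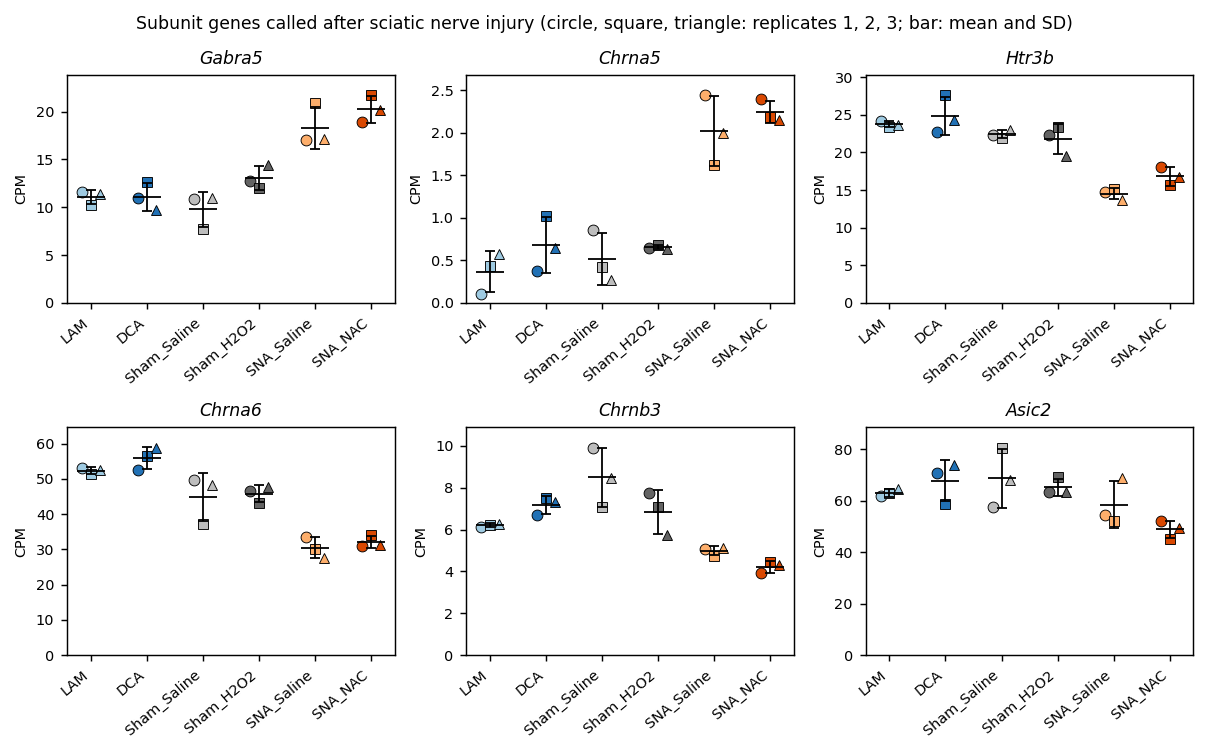
CPM of 6 subunit genes in each library, by group, with the mean and SD of 3 samples as a bar and the replicates as circle, square and triangle. In SNA_Saline and SNA_NAC, Gabra5 and Chrna5 lay above and Chrna6, Chrnb3 and Htr3b below all 12 other samples, while Asic2 overlapped.

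Over the 18 samples, the 6 sciatic injury samples lay above all 12 others for 2 of the 48 genes and below them for 3, the same 5 genes named above. The shares of all genes were 2.19% above and 0.553% below. Because these samples did not overlap, all 5 had to move the same way in each of the 3 sequencing lanes, which carry the replicate numbers. That agreement adds no support. With only the Sham_Saline and SNA_Saline samples in the fit, 0 of the 48 genes passed.

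The families without a called gene held 4 AMPA, 5 kainate, 2 delta, 3 NMDA, 6 P2X and 3 acid-sensing subunits and Glrb. P2rx3 was at 166 ± 40.8 CPM (SD, n = 3) in Sham_Saline and 168 ± 2.35 in SNA_Saline, Grik1 at 247 ± 33.7 and 235 ± 2.04, and Glrb at 188 ± 46.4 and 210 ± 31.4. Asic1 was at 64.8 ± 19.4 and 38.3 ± 4.20 CPM and missed the threshold (adjusted p = 0.0787).

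The number of called genes rose most when 1 control library was left out. Without Sham_Saline replicate 1, 10 of the 48 genes passed, 3 higher and 7 lower, among 16.2% of all genes. The 5 genes above were among the 10, beside Gabrg1 (log2 fold change 0.68), Htr3a (-0.47), Asic1 (-0.82), Asic3 (-0.91) and Grik5 (-1.22). In Sham_Saline, Gabrb2 was at 11.2 CPM in replicate 1, from 235 counts, and at 1.81 and 1.56 CPM in the others. Chrna7 was at 40.3, 16 and 9.98 CPM, and Gabra2 at 83.8, 34.1 and 35.1. Replicate 2 instead stood high for Grik5 (33.9 CPM against 15.1 and 18), Grin1 (83.1 against 53.2 and 42.0) and Asic3 (92.6 against 46.6 and 55.2). The part of these libraries in the result was not tested.

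**Figure D3:**
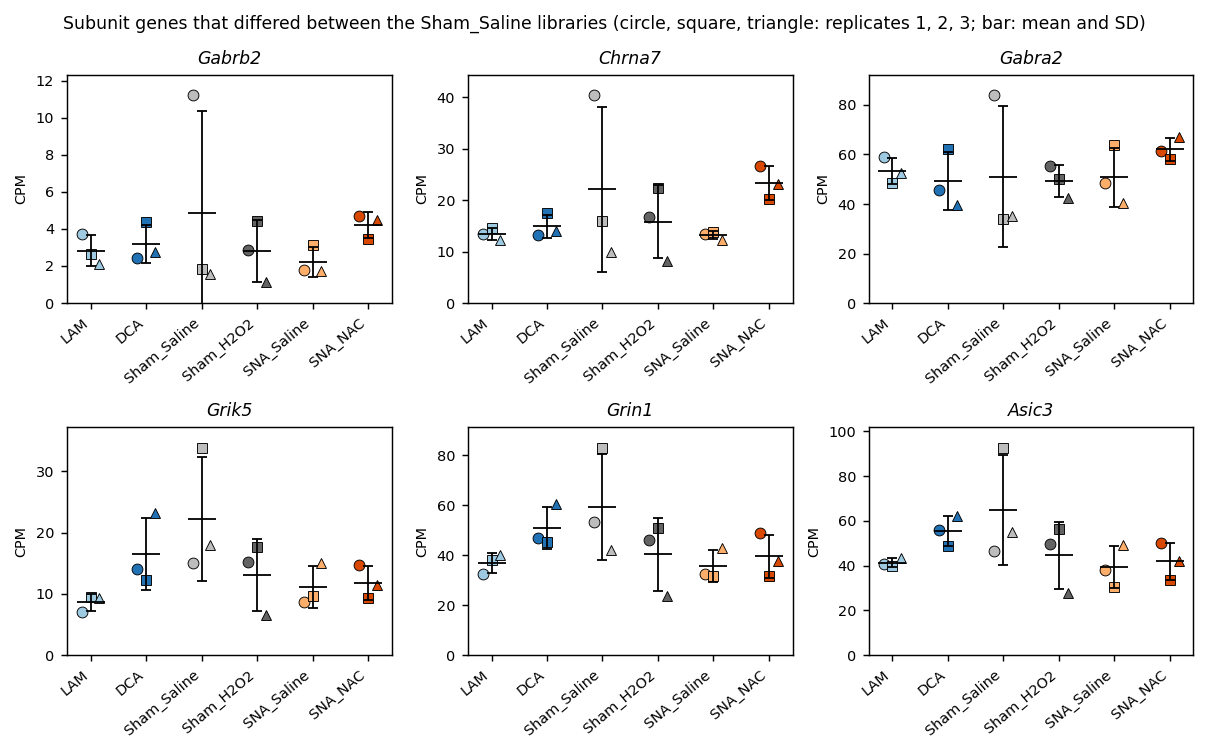
CPM of 6 subunit genes in each library by group, with mean and SD of 3 samples. Sham_Saline replicate 1 (circle) was highest for Gabrb2, Chrna7 and Gabra2, and replicate 2 (square) was highest for Grik5, Grin1 and Asic3.

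GC content also moved with the values. Transcript GC of the 48 genes ran from 35.3% for Gabrg1 to 65.0% for Grin2d, with Grik5 at 61.7% and Asic2 at 59.8%. Across the 48 genes the correlation of GC with log2 fold change was -0.37 for SNA_Saline against Sham_Saline, as a description over genes that share the same libraries. With offsets for GC and length, it was 0.08 and 8 of the 48 genes passed, 2 higher and 6 lower. Of all 15730 genes, 684 were then higher and 485 lower. The 5 called genes lay between 45.4% and 47.8% GC and kept their direction and their call with the offsets.

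Within a family the share of a subunit does not depend on library size. Gabra5 was 6.59%, 9.4% and 11.6% of the summed GABA-A alpha FPKM in Sham_Saline and 13.8%, 14.1% and 16.7% in SNA_Saline. The share was 13.5% to 15.3% in SNA_NAC and 7.89% to 12.6% in the 9 samples of LAM, DCA and Sham_H2O2, so all 6 injured samples lay above the 12 others. Chrna5 was 2.64% to 3.68% of the neuronal nicotinic alpha sum in SNA_Saline and 2.88% to 3.06% in SNA_NAC, also above the 12 others. Chrnb3 was 5.84% to 6.10% of the neuronal nicotinic beta sum in SNA_Saline and 4.37% to 5.44% in SNA_NAC, below the 12 others. Not every called gene separated the 6 injured samples from the 12 others by share. Chrna6 was 44.9% to 47.8% of the neuronal nicotinic alpha sum in SNA_Saline and 37.4% to 43.2% in SNA_NAC. Both overlapped Sham_Saline, at 40.9% to 57.0%. Htr3b was 8.82% to 9.67% of the serotonin 3 sum in SNA_Saline, below Sham_Saline at 10.2% to 12.2%. In SNA_NAC the Htr3b share was 10.2% to 11.4%, which overlapped Sham_Saline. With 3 samples against 3, an exact permutation test of 1 share cannot go below 0.1, so the shares are given as descriptions.

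**Figure D4:**
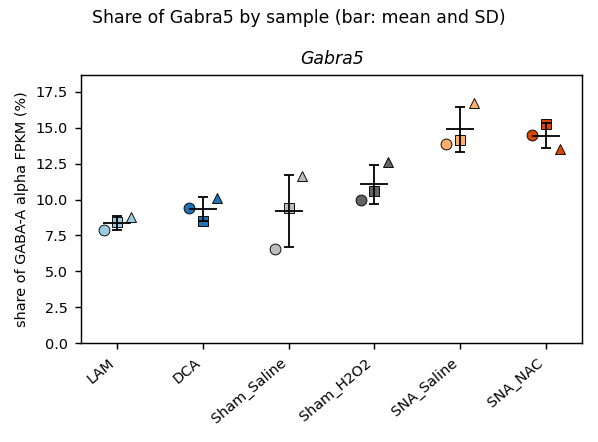
Share of Gabra5 in the summed GABA-A alpha FPKM, in percent, for each of the 18 samples by group, with mean and SD. All 6 samples with sciatic nerve injury lay above the 12 others, at 13.5% to 16.7%.

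SNA_NAC was compared with the same Sham_Saline samples, so the 2 comparisons share their controls and their values are set side by side. Of the 48 genes, 2 were higher and 4 lower, 12.5% of the members, against 3.32% of all genes, 2.47% higher and 0.846% lower. With DESeq2, 1 was higher and 5 lower, among 615 higher and 607 lower of all 15730 genes. Chrna5 (log2 fold change 2.07) was given no adjusted p by that tool and is not a lost call. Gabra5 had a log2 fold change of 1.05 (SE 0.15, adjusted p = 0.000522) and Chrna5 of 2.07 (SE 0.37, adjusted p = 0.00435). Chrnb3 was at -1.01 (SE 0.15, adjusted p = 0.000572), Chrna6 at -0.49 (SE 0.11, adjusted p = 0.0249) and Htr3b at -0.41 (SE 0.11, adjusted p = 0.0434).

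Asic2, an acid-sensing subunit, also passed in SNA_NAC, at 52.0, 45.4 and 49.3 CPM against 57.6, 80.7 and 67.9 in Sham_Saline (log2 fold change -0.49, SE 0.13, adjusted p = 0.0496). SNA_Saline, at 54.6, 52.0 and 68.9 CPM, overlapped Sham_Saline. With GC and length offsets its log2 fold change was 0.000641, and with the replicate block it had an adjusted p of 0.0735. Htr3b also lost its call with the block (adjusted p = 0.0704).

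Leaving out Sham_Saline replicate 1 raised the count to 20 of 48, 12 higher and 8 lower, among 37.3% of all genes. Leaving out Sham_Saline replicate 3, or any 1 SNA_NAC library, left 3, Gabra5, Chrna5 and Chrnb3. With only the samples of the 2 groups in the fit, 0 passed.

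**Figure D5:**
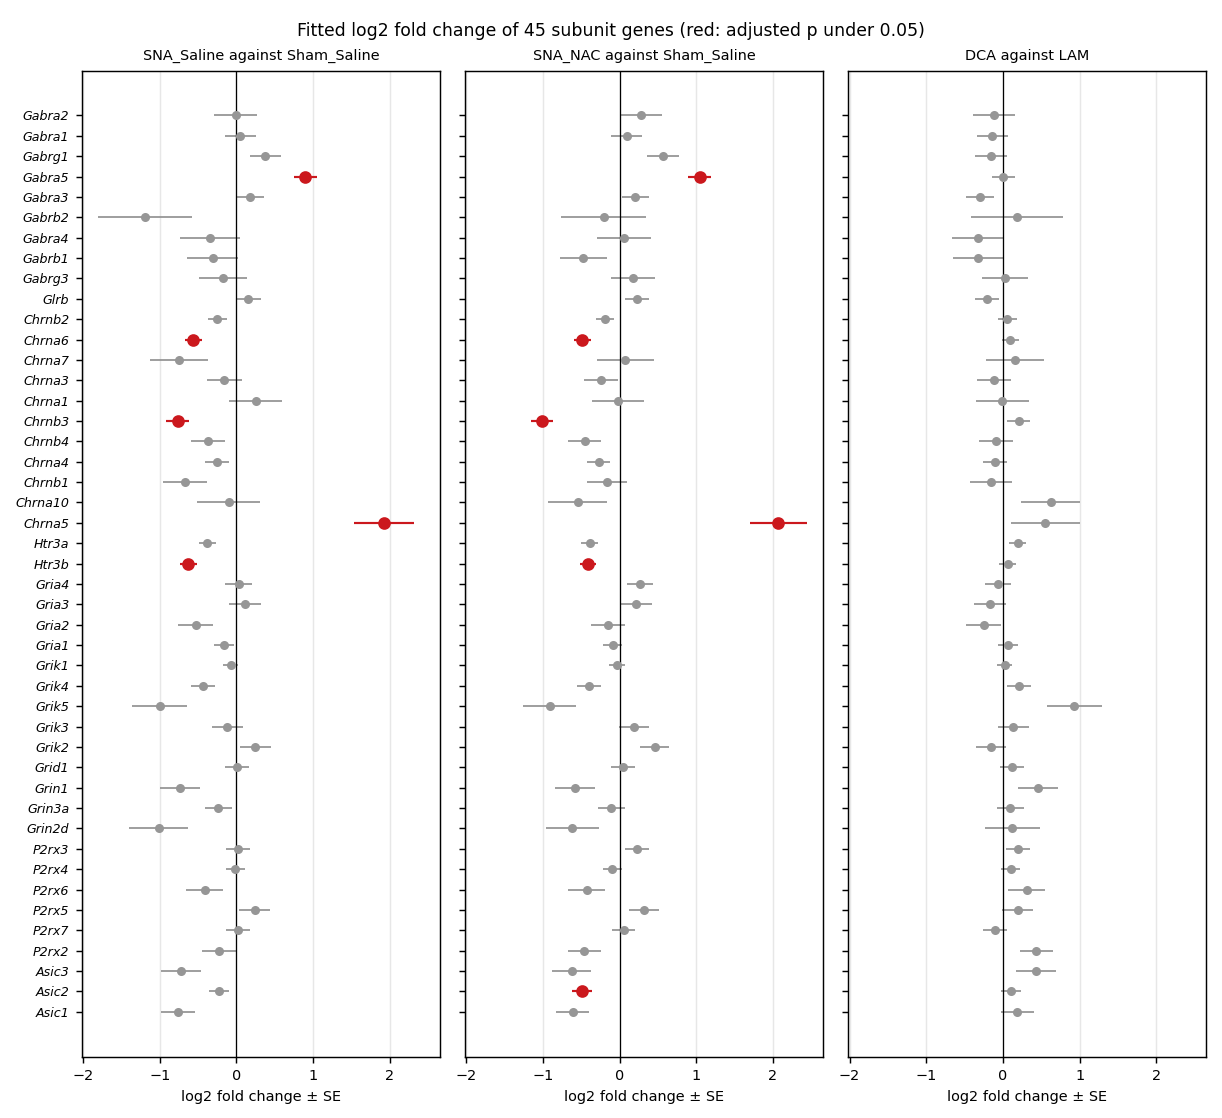
Fitted log2 fold change with SE of 45 of the 48 genes in 3 comparisons, in the same order as the plot of levels. Red points passed an adjusted p of 0.05: 5 for SNA_Saline against Sham_Saline, 6 for SNA_NAC against Sham_Saline and 0 for DCA against LAM.

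SNA_NAC against SNA_Saline asks what the antioxidant changed after the same injury. No member passed, and 0% of all genes were called. An unadjusted p under 0.05 was found for 1 member and for 314 of all 15730 genes, and DESeq2 and limma called 0 members. Chrna7, the nicotinic subunit that forms channels of its own, had the smallest p, at 26.7, 20.1 and 23.1 CPM in SNA_NAC and 13.5, 13.7 and 12.3 in SNA_Saline. The samples did not overlap, and the log2 fold change was 0.83 (SE 0.38, adjusted p = 1.00, 95% interval 0.03 to 1.63). Asic2 came next at -0.26 (SE 0.13, adjusted p = 1.00). Samples of the groups did not overlap for 9 of the 48 genes, 18.8%, against 14.9% of all genes.

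Of the 5 genes called after injury, none was shown to differ with the antioxidant. The interval of the log2 difference was -0.17 to 0.46 for Gabra5, -0.56 to 0.84 for Chrna5, -0.17 to 0.32 for Chrna6, -0.57 to 0.07 for Chrnb3 and -0.02 to 0.44 for Htr3b.

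Sham_H2O2 against Sham_Saline asks whether the oxidant on a sham-operated nerve moved the same genes. No member passed and 0% of all genes were called. An unadjusted p under 0.05 was found for 1 member and for 1440 of all 15730 genes, and DESeq2 and limma called 0 members. Gabra5 had the smallest p, with the 3 Sham_H2O2 samples (12 to 14.5 CPM) above the 3 Sham_Saline samples (7.71 to 10.9 CPM), a log2 fold change of 0.41 (SE 0.15, adjusted p = 0.449, 95% interval 0.08 to 0.74). Grik5 followed at -0.73 (SE 0.36, adjusted p = 0.449). Gabra5 was the 1 member of 48 whose groups did not overlap, 2.08%, against 5.43% of all genes.

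DCA against LAM asks the same of a spinal injury that spares the peripheral branch. No member passed and 0% of all genes were called. An unadjusted p under 0.05 was found for 1 member and for 793 of all 15730 genes, and DESeq2 and limma called 0 members. Grik5 had the smallest p, at 14.1, 12.3 and 23.2 CPM in DCA and 7.04, 9.49 and 9.4 in LAM (log2 fold change 0.93, SE 0.36, adjusted p = 0.624). P2rx2 was next at 0.43 (SE 0.22, adjusted p = 0.624). Groups did not overlap for 8 of the 48 genes, all 8 higher in DCA, which is 16.7% of them against 21.7% of all genes. GC correlated with the log2 fold change at 0.67 across the 48 genes, and at -0.06 with GC and length offsets.

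For the 5 genes called after nerve injury, none was shown to change here. The log2 difference of DCA from LAM was 0.00 for Gabra5 (95% interval -0.32 to 0.32), 0.06 for Htr3b (-0.16 to 0.29), 0.10 for Chrna6 (-0.14 to 0.33) and 0.20 for Chrnb3 (-0.10 to 0.51). For Chrna5 the interval was wide, -0.39 to 1.5 around 0.55.

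The difference of the 2 injury responses, SNA_Saline minus Sham_Saline against DCA minus LAM, was tested itself. It passed for 4 of the 48 genes, 1 higher and 3 lower after nerve injury, 8.33% against 1.61% of all genes, 1.23% higher and 0.388% lower. Gabra5 differed by 0.90 (SE 0.21, adjusted p = 0.0457), Chrnb3 by -0.97 (SE 0.21, adjusted p = 0.0310), Htr3b by -0.69 (SE 0.15, adjusted p = 0.0344) and Chrna6 by -0.66 (SE 0.16, adjusted p = 0.0499). Each had the same direction in 3 of 3 lanes, but the genes were picked by these same values, so that agreement adds no support. Chrna5 did not pass (1.38, SE 0.60, adjusted p = 0.138). In the same test 0 of 15 sensory neuron markers passed, with a median of -0.57, and 0 of 7 Schwann cell markers, with a median of -0.50. Of the 15, 9 had an unadjusted p under 0.05, as did 4933 of all 15730 genes. Across the 48 genes GC correlated with the difference at -0.59, and at 0.10 with GC and length offsets. The part of these markers in the result was not tested. With lane as a replicate block and no other change, no member passed, though the differences hardly moved (-0.96 for Chrnb3, -0.69 for Htr3b, -0.65 for Chrna6 and 0.90 for Gabra5). With GC and length offsets 6 members passed, where 448 of all genes were higher and 378 lower. With block and offsets together 5 passed, where 355 of all genes were higher and 201 lower. The 4 genes above were among them in both. No member passed when the fit held only the 4 groups. Leaving out 1 library gave 0 to 14 members, with 0 for DCA replicate 3, each LAM library and SNA_Saline replicates 1 and 2, and without Sham_Saline replicate 1 the 14 stood among 29.2% of all genes.

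This difference rests on both controls, so Sham_Saline was compared with LAM. No member passed, against 0.0699% of all genes. An unadjusted p under 0.05 was found for 10 of the 48 members and for 4765 of all 15730 genes. DESeq2 called 1 member, where 833 of all genes were higher and 250 lower, and limma called 0 members. Grik5 had the smallest p, at 15.1, 33.9 and 18 CPM in Sham_Saline against 7.04 to 9.49 in LAM (log2 fold change 1.36, SE 0.36, adjusted p = 0.104), and Chrnb3 was at 0.45 (SE 0.14, adjusted p = 0.104). Without Sham_Saline replicate 1, 10 members passed, 2 higher and 8 lower, among 31.8% of all genes. Chrnb3 in LAM, at 6.11 to 6.28 CPM, lay between SNA_Saline (4.76 to 5.13) and Sham_Saline (7.07 to 9.91).

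Of 49 genes that traffic, anchor or set the ion gradients of these channels, 2 rose and 3 fell in SNA_Saline against Sham_Saline, where 2.73% of all genes were called. Stom, a membrane scaffold protein that binds acid-sensing channels, rose by 0.60 (SE 0.09, adjusted p = 0.00143), and Cbln2, which links presynaptic partners to delta receptors, rose by 0.53 (adjusted p = 0.0372). The AMPA receptor partners Nptx1 (-0.56, adjusted p = 0.0126), Cacng2 (-0.53, adjusted p = 0.0195) and Cacng5 (-0.61, adjusted p = 0.0392) fell. In SNA_NAC against Sham_Saline, 4 rose and 1 fell, where 3.32% of all genes were called. In the difference of responses only Stom of this list passed, at 0.64 (SE 0.13, adjusted p = 0.0275). Of 28 genes that make, store or take up the transmitters, 1 rose after nerve injury, a share near the 2.16% of all genes called higher. It was the serotonin transporter Slc6a4, from 0.950 ± 0.309 CPM (SD, n = 3) in Sham_Saline to 4.25 ± 0.543 in SNA_Saline (log2 fold change 2.12, SE 0.29, adjusted p = 0.000397). In SNA_NAC 3 of the 28 rose, against 2.47% of all genes, and in the difference of responses Slc6a4 passed alone, at 2.37 (SE 0.50, adjusted p = 0.0281). Both lists had 0 calls in the other 4 comparisons by edgeR, with 0 to 16 genes at an unadjusted p under 0.05. Over all 15730 genes, 314 to 4765 were under it in those comparisons. The 1 tested gene of 12 other channel subunits outside the naming rule did not pass.

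Several members share exons with a gene on the opposite strand, and whether the counting used strand is not given in the sources used here. The shared part was 39.0% of the exons of Chrna10 (with Art1), 16.3% of Chrnb2 (with Adar), 13.9% of P2rx6 (with Slc7a4) and 13.5% of Grin1 (with Grin1os). Among the called genes Gabra5 shared 4.98% with Gm9962, and Chrna5, Chrna6, Chrnb3 and Htr3b shared none.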

How the data were processed

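RNA was measured by sequencing in 18 pools of mouse dorsal root ganglia, 3 in each of 6 groups, grouped by the sample titles. The authors deposited whole-number counts per gene and FPKM values, which divide by gene length and library size. Per the labels' protocols, a stranded mRNA kit and single-end reads were used, 6 libraries to a lane. The submitters' processing notes name TopHat2 2.0.12, Bowtie2 2.2.3, SAMtools 0.1.19, HTSeq 0.6.0, edgeR 3.8.6, limma 3.22.7 and the build mm10, with no role for each; the use of strand is not given in the sources used here.

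For testing, edgeR 4.0.16 (quasi-likelihood, TMM factors, filterByExpr; R 4.3.3) took the counts, with all 18 samples in 1 fit and no block, and p-values were adjusted by Benjamini-Hochberg over all 15730 genes. SE is the log2 fold change divided by the root of the test's F. The common biological coefficient of variation was 17.4%. Totals of 6472476 to 42435331 counts set the precision, and without molecular identifiers the reads may repeat molecules. The labels call replicates separate pools of animals. P-values measure the spread between these pools. No pair of replicates agreed within sampling noise.

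Alternatives were DESeq2 1.42.0, an adjusted p of 0.1, a minimum of 10 counts, no filter, only the groups compared, a replicate block, GC and length offsets (natural splines with 5 degrees of freedom, GENCODE M21), both together, limma 3.58.1 on log2(FPKM + 1), and leaving out each sample. With no filter the same 15730 genes were tested as with it, so that alternative could not change a result. The replicate number equals the lane number in the labels, while same-numbered samples are different animals. Deviations of same-numbered samples correlated at -0.65 to 0.10 for SNA_Saline and Sham_Saline, -0.53 to -0.15 for SNA_NAC and Sham_Saline, -0.14 to 0.42 for SNA_NAC and SNA_Saline, 0.03 to 0.56 for Sham_H2O2 and Sham_Saline, -0.23 to 0.23 for DCA and LAM, and 0.24 to 0.42 for Sham_Saline and LAM. Named members were those passing the threshold in a comparison, or the 2 with the smallest p where none passed, and the highest and lowest FPKM of each family. The symbol pattern uses no measured value, but the gene families, the lists and the tests were chosen with earlier results of these data known. The tests were tried on simulated data first. Figures used matplotlib 3.10.9. Values of 3 of the 48 members are not reported here one by one, though all 48 enter the counts and fits.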

Additional observations from a re-analysis of the deposited data

Results flagged for a closer look

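For 4 subunit genes the difference between the log2 changes after sciatic nerve injury and after spinal injury passed its test in the fit with no block (edgeR, Benjamini-Hochberg over all genes). That difference was -0.97 for Chrnb3, -0.69 for Htr3b, -0.66 for Chrna6 and 0.90 for Gabra5. Each had 1 direction in 3 of 3 lanes, which adds no support for genes picked by these same values. With the replicate block alone the differences were -0.96, -0.69, -0.65 and 0.90 in that order and none of the 4 passed: the adjusted p was 0.0605 for Chrnb3, 0.0638 for Htr3b, 0.0841 for Chrna6 and 0.0855 for Gabra5. All 4 passed with GC and length offsets, with and without the block. Of 21 alternatives, Chrnb3 lost its call in 9, Htr3b in 11, Chrna6 in 12 and Gabra5 in 10. All 4 calls were lost with only the 4 groups in the fit, and without DCA replicate 3 or any 1 LAM library.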

How the results depend on the processing

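The count of called members was 5 for SNA_Saline against Sham_Saline, 6 for SNA_NAC against Sham_Saline and 4 for the difference of the injury responses. With only the compared groups in the fit each of these was 0. For SNA_Saline, GC and length offsets gave 8, where 684 of all genes were higher and 485 lower. The same offsets with the replicate block gave 9, where 623 of all genes were higher and 379 lower. Leaving out 1 library gave 4 to 10, the 10 standing among 16.2% of all genes. For SNA_NAC, leaving out 1 library gave 3 to 20, the 20 standing among 37.3% of all genes. For the difference, DESeq2 gave 9, where 673 of all genes were higher and 965 lower. An adjusted p under 0.10 gave 10, where 933 of all genes were higher and 1465 lower. The replicate block gave 0, where 107 were higher and 11 lower. GC and length offsets gave 6, where 448 were higher and 378 lower. The offsets with the block gave 5, where 355 were higher and 201 lower. Leaving out 1 library gave 0 to 14, the 14 standing among 29.2% of all genes. For Sham_Saline against LAM, with 0 called, DESeq2 gave 1, where 833 of all genes were higher and 250 lower. Leaving out 1 library gave 0 to 10, the 10 standing among 31.8% of all genes. The change of Asic2 in SNA_NAC turned from -0.49 to 0.000641 with GC and length offsets and to 0.00366 with the block added. The cause was not tested. The replicate block kept 5 calls in SNA_Saline and 4 in SNA_NAC, where Htr3b and Asic2 were lost, and it changed no other call outside the difference. The other 3 comparisons had 0 called members under every alternative run. Of the called genes, Chrna5 had the lowest counts, at 1 to 101 per library.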
